A study of Homo sapiens with 9 samples.

Results

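Immediate-early factors are transcription factors and feedback regulators whose genes are switched on within minutes of a growth or stress signal, without new protein synthesis. The families covered here are FOS, JUN, EGR, IER, MAF, MYC, KLF, HES, SPRY and ARC, together with the dual-specificity phosphatases (DUSP), which were chosen by gene symbol. Of 73 such genes with a probe set, 71 reached a log2 intensity of 5 on at least 3 of the 9 arrays and were tested, among 12155 tested genes in all. DUSP21 and the antisense RNA BHLHE40-AS1 stayed below that floor.

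The cells were EA.hy926, an established human line made by fusing umbilical vein endothelial cells with a lung carcinoma line. The 3 groups, with 3 arrays each, were unexposed cells, cells given 5 nm silver nanoparticles and cells given 100 nm silver nanoparticles, the exposed ones treated for 6 h at about the LD50. All 3 groups share the cell line, and no mass dose is given in the sources used here. The study's title names interleukin-11 beside genes of the stress response. All 13 tested of 18 endothelial markers were at or above the floor on every unexposed array, with mean log2 levels from 5.98 for VWF to 12.40 for ENG. So were 9 of the 10 tested epithelial and 3 of the 4 tested leukocyte markers. A tested gene already reached the floor on at least 3 of the 9 arrays, so these counts do not identify the cell type. Of 13 epithelial markers 10 were tested, and their summed log2 level was 65.5 to 72.0 on the unexposed arrays, 64.9 to 71.3 with 5 nm particles and 65.4 to 71.8 with 100 nm particles; KRT18 was at 10.85 and EPCAM at 5.15 in unexposed cells. Of 8 leukocyte markers 4 were tested, with CD14 at 4.60, LYZ at 7.02 and CD68, which other cells also express, at 11.82 in unexposed cells. The part of such markers in the results was not tested. The array medians lay between 5.15 and 5.64.

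In textbook form, a signal runs through the MAP kinases (ERK, JNK and p38), which activate factors already bound near immediate-early genes, the serum response factor at the CArG box among them. FOS and JUN proteins then pair into AP-1, EGR1 binds GC-rich promoters, and the small MAF proteins pair with NRF2-type factors at antioxidant genes. The DUSP and SPRY genes are the brakes: MAP kinase phosphatases strip the phosphates from ERK, JNK and p38, and Sprouty proteins damp receptor signalling. In endothelium, KLF2 and KLF4 are known as factors induced by laminar flow.

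The promoter stretches of EGR1, FOSB, JUNB, IER5 and DUSP1 are shown because these genes were among the members with the highest differences after 5 nm particles. Each is the 250 bases before the RefSeq gene start (GRCh38.p14), 5′ to 3′ on the gene's strand. Capitals mark matches to 3 motifs searched on both strands: the CArG box, the cAMP response element TGACGTCA and the heat shock element core GAANNTTC. The positions are chr5:138465229-138465478 (plus strand) for EGR1, chr19:45467746-45467995 (plus) for FOSB, chr19:12791236-12791485 (plus) for JUNB, chr1:181088450-181088699 (plus) for IER5 and chr5:172771196-172771445 (minus) for DUSP1.
EGR1: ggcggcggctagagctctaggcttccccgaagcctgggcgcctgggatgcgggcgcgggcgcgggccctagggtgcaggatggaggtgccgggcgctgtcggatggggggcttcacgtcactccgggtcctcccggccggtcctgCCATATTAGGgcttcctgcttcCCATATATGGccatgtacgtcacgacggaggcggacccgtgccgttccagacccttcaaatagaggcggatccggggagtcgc
FOSB: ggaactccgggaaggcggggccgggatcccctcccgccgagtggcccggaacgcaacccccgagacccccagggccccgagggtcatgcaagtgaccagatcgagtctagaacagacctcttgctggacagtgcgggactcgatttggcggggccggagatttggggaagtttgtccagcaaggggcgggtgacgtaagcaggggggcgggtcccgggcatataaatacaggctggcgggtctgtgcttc
JUNB: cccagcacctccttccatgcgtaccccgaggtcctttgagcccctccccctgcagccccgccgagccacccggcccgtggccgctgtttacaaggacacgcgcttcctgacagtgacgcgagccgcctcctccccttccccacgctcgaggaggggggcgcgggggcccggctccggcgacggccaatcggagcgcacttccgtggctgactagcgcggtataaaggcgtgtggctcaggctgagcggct
IER5: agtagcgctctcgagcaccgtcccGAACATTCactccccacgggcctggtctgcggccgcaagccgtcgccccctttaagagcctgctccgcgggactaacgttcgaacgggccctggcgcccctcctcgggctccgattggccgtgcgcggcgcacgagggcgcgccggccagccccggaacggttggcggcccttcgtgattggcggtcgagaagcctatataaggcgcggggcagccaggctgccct
DUSP1: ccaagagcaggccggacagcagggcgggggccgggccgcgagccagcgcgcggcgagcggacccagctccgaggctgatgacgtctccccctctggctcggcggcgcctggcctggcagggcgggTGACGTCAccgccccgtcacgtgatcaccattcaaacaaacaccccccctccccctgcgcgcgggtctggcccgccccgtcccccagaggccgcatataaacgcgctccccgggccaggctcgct
EGR1 held 2 CArG boxes, at 105 to 96 and 83 to 74 bases before the start, DUSP1 held 1 TGACGTCA at 125 to 118 bases, and IER5 held 1 GAANNTTC at 226 to 219 bases. None of the 3 motifs was spelled in the windows of FOSB and JUNB. Over all 35116 windows of this length, 1.16% held a CArG box, 1.65% TGACGTCA and 5.78% GAANNTTC. Of 56 tested members with a window, 4 held a CArG box (EGR1, HES3, HES5 and KLF7), 6 held TGACGTCA (DUSP1, DUSP8, JUND, KLF11, MAF and MAFF) and 6 held GAANNTTC (DUSP28, DUSP29, IER5, JUN, KLF7 and SPRY3). A match is a description of the letters, not a site or a cause. HES3, HES5 and KLF7 differed by 0.00, 0.03 and 0.10 on the log2 scale after 5 nm particles.

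The first comparison was 5 nm particles against unexposed cells. EGR1, ARC, IER5, DUSP1, JUNB, DUSP16, MAFG, FOSB and DUSP5 had mean log2 differences of 1.93 to 0.69 and were higher on the 5 nm array than on the control array of the same replicate number in all 3 numbers. None of the 71 members passed at a Benjamini-Hochberg adjusted p under 0.05 in limma, with or without the replicate number as a block, so all these differences are given as values. Over all genes, 0.074% passed as higher and 0% as lower without the block, and 0.296% and 0.354% (0.65% in all) with it. At an unadjusted p under 0.05 in limma, 8 members were higher and 0 lower without the block, where 1.36% of all genes were higher and 0.296% lower. With the block 11 members were higher and 5 lower, where 5.48% and 8.83% of all genes were. Nothing in the labels says that the arrays of a group came from separate cultures, so the p-values speak only for the spread among these arrays, and that spread may be technical.

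Within replicate numbers, 13 of 71 members were higher in all 3 numbers, where 8.03% of all genes were, and 7 were lower in all 3, where 13.4% were. Those higher by over 0.5 in mean and in all 3 numbers were the 9 members named above, where 2.03% of all genes were, and no member was lower by that measure, where 1.39% were. All 3 arrays with 5 nm particles lay above all 3 unexposed arrays for 7 members (9.86%: ARC, DUSP16, DUSP5, IER5, JUNB, MAFF and MAFG), where 1.41% of all genes did, and below them for DUSP7 (1.41%), where 0.469% did. Overlap, here and below, compares arrays across replicate numbers, which appear to have been normalized apart. Some margins were small: the lowest 5 nm value of MAFF was 7.07, against 6.99 for its highest unexposed value. The mean difference was positive for 44 members (62.0%), negative for 19 and exactly 0 for 8. Over all genes 35.9% were positive and 45.1% negative. The median difference of the members was 0.02, against 0.00 over all genes. The medians were thus close, though a higher share of the members than of all genes was positive. In an RNA pool, fewer cells carrying a transcript and less of it per cell cannot be told apart.

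**Figure D1:**
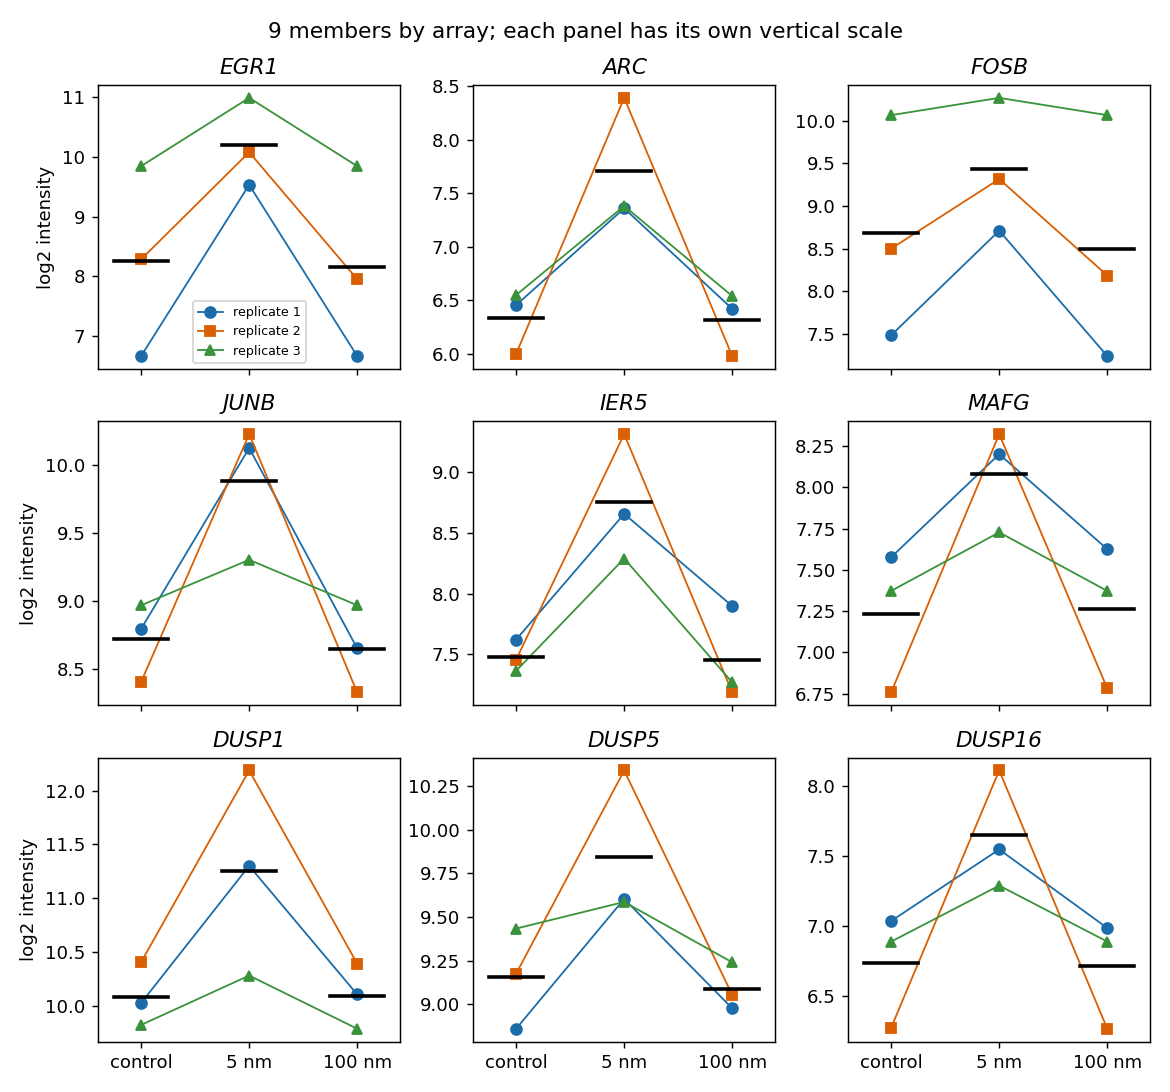
Log2 intensity (vertical axis, own scale in each panel) of 9 members on each of the 9 arrays, by group; points of 1 colour and shape joined by a line share a replicate number, and black bars are group means (n = 3). Every 5 nm point lies above the control of its own number, while the 100 nm points return to within 0.33 of it, and EGR1 and FOSB are spread over more than 2.5 log2 units on the unexposed arrays.

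EGR1, a zinc-finger factor and a named marker of these families, had log2 intensities of 6.67, 8.29 and 9.84 on the unexposed arrays of replicates 1, 2 and 3 (probe set 16989736). It was at 9.53, 10.08 and 10.98 with 5 nm particles and at 6.67, 7.95 and 9.84 with 100 nm particles. The groups overlap, because unexposed replicate 3 stood above exposed replicate 1, yet within each number the 5 nm array was the highest. The means were 8.27 ± 1.59 and 10.20 ± 0.73 (SD, n = 3 each), so the 5 nm mean was higher by 1.93 log2 units (3.81-fold; 95% interval 0.02 to 3.84), which did not pass (adjusted p = 1 in limma, 0.145 with the block). Within numbers the differences were 2.86, 1.79 and 1.14. The number with the lowest unexposed level had the highest difference and the number with the highest unexposed level the lowest. A second EGR1 probe set, at 5.35, 4.92 and 5.94 on the unexposed arrays, held the same value in all 3 groups of each number.

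EGR3 and EGR4, close relatives of EGR1, were dim. EGR3 lay at 6.26, 5.83 and 5.84 in unexposed cells and differed by 0.43, 0.08 and 0.15 after 5 nm particles. EGR4 lay at 5.65, 4.64 and 5.00, about the floor, and differed by 0.06, 0.00 and 0.00.

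ARC, a cytoskeletal regulator best known from synapses and the other named marker, was at 6.46, 6.00 and 6.55 in unexposed cells (probe set 17081917). It was at 7.36, 8.39 and 7.38 with 5 nm particles and at 6.42, 5.98 and 6.54 with 100 nm particles. All 3 arrays of the 5 nm group were above all 6 others. The difference was 1.37 (95% interval 0.69 to 2.06, 2.59-fold), with adjusted p = 0.446 in limma and 0.244 with the block. Replicate 2 had the lowest unexposed value, the highest exposed value and a within-number difference of 2.39, against 0.90 and 0.83 in replicates 1 and 3.

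The FOS family makes the partners of JUN in AP-1. FOSB was at 7.48, 8.50 and 10.07 in unexposed cells, at 8.71, 9.32 and 10.27 with 5 nm particles and at 7.24, 8.19 and 10.07 with 100 nm particles (probe set 16863287). Its groups overlap, and the within-number differences for 5 nm particles were 1.23, 0.82 and 0.20 (mean 0.75, adjusted p = 1 in limma, 0.336 with the block). A second, dimmer FOSB probe set differed by 0.74, 0.89 and 0.21. It was at 6.24, 6.65 and 8.37 in unexposed cells and at 6.30, 6.32 and 8.77 with 100 nm particles. In replicate 3 its 100 nm value was above its 5 nm value of 8.58, unlike on the brighter probe set.

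FOS itself was at 7.90, 8.91 and 10.60 in unexposed cells and at 8.62, 8.64 and 10.52 with 5 nm particles. Its within-number differences were 0.72, -0.27 and -0.08, so FOS was higher in 1 number only and its mean difference was 0.12 (95% interval -1.73 to 1.98). FOSL1, with the highest unexposed mean of the family at 11.51, differed by 0.02, 0.08 and 0.00. FOSL2 differed by -0.06, -0.04 and -0.09. The 4 genes therefore had a median difference of 0.08, with FOSB alone over 0.5.

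Among the JUN genes, JUNB was the one that was higher in every number. It was at 8.80, 8.41 and 8.97 in unexposed cells, at 10.13, 10.23 and 9.30 with 5 nm particles and at 8.65, 8.33 and 8.97 with 100 nm particles (probe set 16858710). The 5 nm arrays did not overlap the others. The difference was 1.16 (95% interval 0.51 to 1.81, 2.24-fold; adjusted p = 0.616 in limma, 0.262 with the block), with 1.33 and 1.82 in replicates 1 and 2 and 0.33 in replicate 3. JUN, at 10.22, 10.22 and 10.03 in unexposed cells, differed by -0.02, 0.48 and 0.05. JUND, at 8.84, 8.88 and 9.38, differed by 0.06, 0.87 and -0.03. For both, a difference over 0.1 was present in replicate 2 only. The divergent noncoding transcript JUN-DT, near the floor, was at 5.70, 5.63 and 5.43 and differed by 0.00, -0.19 and 0.00, the same as with 100 nm particles.

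Of the IER genes, IER5, a short-lived nuclear regulator known to act on the heat shock factor HSF1, was at 7.62, 7.46 and 7.36 in unexposed cells (probe set 16674618). It was at 8.66, 9.32 and 8.29 with 5 nm particles and at 7.90, 7.19 and 7.27 with 100 nm particles. The 5 nm arrays did not overlap the others, and the difference was 1.27 (95% interval 0.62 to 1.93, 2.42-fold; adjusted p = 0.46 in limma, 0.174 with the block). Its unexposed arrays were close together (SD 0.13), and the within-number differences were 1.04, 1.86 and 0.93. IER2 differed by 0.00, 0.14 and 0.10. IER3, a survival gene with 11 probe sets of which the brightest was used, had the highest unexposed level of the family (10.49, 10.06 and 9.90) and was lower by 0.06, 0.39 and 0.20. IER3IP1, which the symbol rule takes in although it encodes a secretory-pathway protein and not an immediate-early product, was at 9.57, 8.93 and 8.72 in unexposed cells and differed by 0.03, -0.02 and 0.00.

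In the MAF family, MAFG, a small MAF protein without an activation domain of its own, was at 7.58, 6.76 and 7.37 in unexposed cells, at 8.20, 8.32 and 7.73 with 5 nm particles and at 7.63, 6.78 and 7.37 with 100 nm particles (probe set 16850021). The 5 nm arrays lay above all others, with within-number differences of 0.63, 1.56 and 0.36 (mean 0.85, adjusted p = 1 in limma, 0.303 with the block). MAFF, also a small MAF, was at 6.91, 6.92 and 6.99 in unexposed cells and differed by 0.34, 0.52 and 0.08, again without overlap. MAFA, a large MAF, differed by 0.33, 0.52 and 0.56. Among the members it had the lowest adjusted p in limma with the block, 0.0817 (1 without), and its level of 5.68 to 6.50 in unexposed cells was low. MAF itself was at the floor and differed by 0.00, 0.04 and 0.00. In all, 3 of 4 tested family members were higher in all 3 numbers, where 8.03% of all genes were. The family's median difference was 0.39, against 0.00 over all genes.

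**Figure D2:**
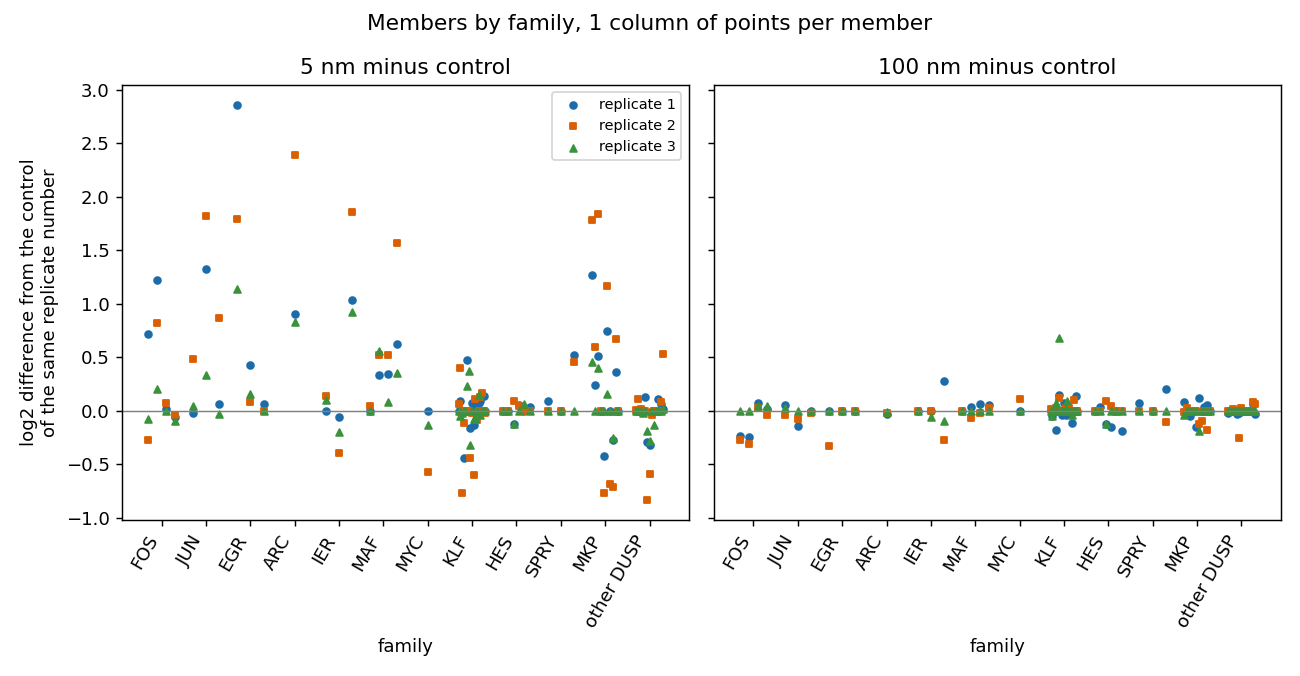
Log2 difference from the control array of the same replicate number (vertical axis) for members by family (horizontal axis, MKP for MAP kinase phosphatases), after 5 nm (left) and 100 nm particles (right). JUN-DT, KLF3-AS1 and IER3IP1 are not drawn. Each member drawn is 1 column with a point for each of 3 replicate numbers. After 5 nm particles points over 1 stand in the FOS, JUN, EGR, ARC, IER, MAF and MKP families, while after 100 nm particles the only point over 0.5 is KLF14 in replicate 3.

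The MAP kinase phosphatases divided. DUSP1, an inducible nuclear phosphatase of p38, JNK and ERK, was at 10.03, 10.41 and 9.83 in unexposed cells, at 11.30, 12.19 and 10.28 with 5 nm particles and at 10.11, 10.39 and 9.79 with 100 nm particles (probe set 17002846). Exposed replicate 3 lay inside the unexposed range. The within-number differences were 1.27, 1.78 and 0.46, and the mean was 1.17 (95% interval 0.26 to 2.08, 2.25-fold; adjusted p = 1 in limma, 0.202 with the block).

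DUSP5, an inducible nuclear phosphatase of ERK, was at 8.86, 9.18 and 9.43 in unexposed cells, 9.60, 10.34 and 9.59 with 5 nm particles and 8.98, 9.05 and 9.24 with 100 nm particles (probe set 16709128). The 5 nm arrays lay above the others, and the differences were 0.74, 1.16 and 0.15. A second DUSP5 probe set near the floor differed by 0.00, 0.00 and -0.18. DUSP16, which acts on JNK and p38, was at 7.03, 6.27 and 6.89 in unexposed cells, 7.54, 8.11 and 7.29 with 5 nm particles and 6.98, 6.26 and 6.89 with 100 nm particles (probe set 16761631). Here too the 5 nm arrays did not overlap the others; the differences were 0.51, 1.84 and 0.40, with adjusted p = 1 in limma and 0.346 with the block. DUSP8 and DUSP10, the other two phosphatases that prefer JNK and p38, differed by 0.36, 0.67 and 0.00 and by 0.24, 0.59 and 0.00.

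The ERK-directed cytoplasmic phosphatases had values of the other sign or of 0. DUSP7 was at 9.79, 10.05 and 9.55 in unexposed cells and at 9.52, 9.34 and 9.30 with 5 nm particles, without overlap, and differed by -0.27, -0.71 and -0.25 (adjusted p = 1 in limma, 0.231 with the block). DUSP6 differed by -0.68 in replicate 2 and by 0.00 in the others. DUSP9 differed by 0.00 throughout. The nuclear phosphatase DUSP4 differed by -0.42, -0.77 and 0.00, and DUSP2 by 0.00 throughout. Over the 10 genes the mean differences ran from -0.41 to 1.17 with a median of 0.14, 5 being positive, 3 negative and 2 exactly 0. In all 3 numbers 3 were higher and 1 lower, where 8.03% and 13.4% of all genes were.

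**Figure D3:**
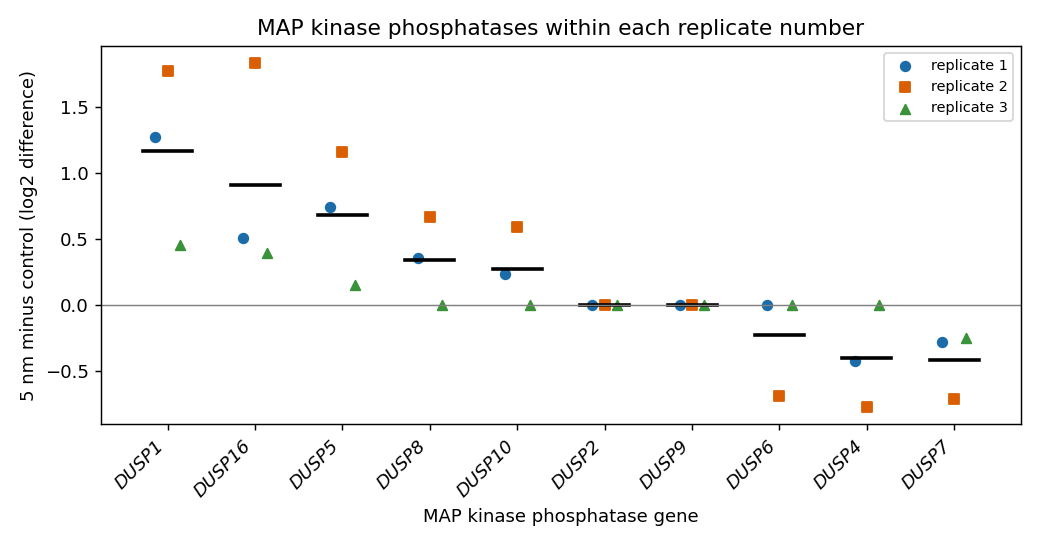
Log2 difference between the 5 nm and the control array of the same replicate number (vertical axis) for the 10 MAP kinase phosphatase genes, ordered by mean (black bar); points are the 3 replicate numbers. DUSP1, DUSP16 and DUSP5 lie above 0 in every number, DUSP7 below it in every number, and replicate 2 has the point farthest from 0 for each gene that differed at all.

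The other 13 DUSP genes, most of which do not act mainly on MAP kinases, ranged from -0.44 to 0.19 in mean with a median of 0.00. DUSP18, at 8.98, 8.44 and 8.50 in unexposed cells, differed by -0.30, -0.83 and -0.19, and DUSP19 by -0.32, -0.59 and -0.28 (adjusted p = 0.267 and 0.138 in limma with the block, 1 without). DUSP11, the brightest of them (10.07, 9.81 and 9.56 in unexposed cells) and an RNA phosphatase by function, differed by less than 0.01 in each number. DUSP18 and DUSP19 were the 2 of these 13 that were lower in all 3 numbers, where 13.4% of all genes were. DUSP3 (0.01, 0.53 and 0.02) was the 1 that was higher in all 3, where 8.03% of all genes were.

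The KLF genes, zinc-finger factors of growth and differentiation, were the largest transcription factor family, with 17 tested, and had a median difference of 0.02. Their mean differences stayed between -0.31 and 0.23. KLF2, with the highest unexposed mean of the family (11.12, 10.69 and 11.07), differed by -0.14, -0.60 and -0.08. KLF4, its partner in flow responses, was at 6.90, 7.15 and 7.49 and differed by 0.00, -0.09 and 0.00. KLF16, at 10.54, 9.79 and 10.49, differed by -0.16, -0.44 and -0.32 (adjusted p = 0.16 in limma with the block, 1 without). KLF6, KLF10 and KLF11 differed by 0.06, 0.15 and -0.26 in mean. KLF2 and KLF16 were the family's members that were lower in all 3 numbers, where 13.4% of all genes were. None was higher in all 3, where 8.03% of all genes were.

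MYC, a growth factor target and transcription factor, was at 9.77, 9.51 and 9.22 in unexposed cells and differed by 0.00, -0.57 and -0.13. The 6 HES genes, which encode transcriptional repressors, had mean differences of -0.05 to 0.03. HES4, the brightest of them, was at 7.54, 6.65 and 6.97 in unexposed cells and at 7.42, 6.75 and 6.84 with either particle, 0.12 below the control in replicates 1 and 3 and 0.09 above it in replicate 2. Among the SPRY genes, SPRY4 was at 8.85, 8.46 and 8.56 in unexposed cells and at 9.38, 8.92 and 8.56 with 5 nm particles, so that replicate 3 did not differ. SPRY2 was at 8.93, 8.94 and 8.70 in unexposed cells and at 9.02, 8.93 and 8.70 with 5 nm particles, and SPRY3 differed by 0.00 throughout. The antisense RNA KLF3-AS1 differed by 0.00 throughout. A further 24 coding genes of these families, among them the NR4A receptors, the ID proteins, EGR2, HES1 and BHLHE40, were not analysed here because no named probe set was at hand.

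The 3 replicate numbers did not carry equal differences. After 5 nm particles, 15 members were higher and 8 lower by over 0.5 in replicate 2 (32.4% of 71, where 12.0% of all genes were), 11 and 0 in replicate 1 (15.5%, where 3.04% were) and 4 and 0 in replicate 3 (5.63%, where 2.16% were). All 9 of the members over 0.5 with 1 sign had their smallest difference in replicate 3, and 7 had their largest in replicate 2. EGR1 and FOSB had theirs in replicate 1. Among the 416 genes of the whole series chosen in the same way, the largest difference was in replicate 2 for 388 and in replicate 1 for 12, EGR1 and FOSB among them. The smallest was in replicate 3 for 300 of the 416 (72.1%).

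Leaving out replicate numbers or single arrays moved the counts, over all genes as well as over the members. Without replicate 2, 6 members were over 0.5 with 1 sign, all higher (8.45%: ARC, DUSP1, EGR1, FOSB, IER5 and JUNB), where 1.28% of all genes were higher and 0.469% lower. Without replicate 3, 10 were higher (14.1%), where 2.99% of all genes were, and DUSP4 and DUSP18 were lower (2.82%), where 3% were. In limma with the replicate block, leaving out the 5 nm array of replicate 2 gave 4 members past the threshold (5.63%: ARC and DUSP16 higher, DUSP7 and DUSP19 lower; ARC adjusted p = 0.00655), where 2.68% of all genes passed. Leaving out that of replicate 3 gave 2 (2.82%: DUSP1, adjusted p = 0.0466, and JUNB, 0.0352), below the 3.67% of all genes that passed. Leaving out that of replicate 1 gave MAFA (1.41%), near the 1.08% of all genes. Leaving out the unexposed array of replicate 2 gave HES4, as lower, among 10 genes in all. In that fit HES4 also passed as lower with 100 nm particles, as the only 1 of 12155 genes. Its values were the same with either particle.

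The unexposed arrays themselves differed in a few of these genes. After each array was centred on its median over the tested genes, EGR1, FOS and FOSB ranked 4, 5 and 6 of 12155 genes by their SD over the 3 unexposed arrays (1.82, 1.57 and 1.52 log2 units), where the median SD of all genes was 0.225. They were the 3 members among 39 genes (0.321%) with an SD over 1. In all 3, unexposed replicate 3 was the highest array and replicate 1 the lowest, and the difference between those 2 arrays was 3.63 for EGR1, 3.15 for FOS and 3.04 for FOSB. The 100 nm arrays kept this order (SD 1.81, 1.69 and 1.64). With 5 nm particles the SD of EGR1 was 0.95, that of FOS 1.22 and that of FOSB 1.00. DUSP6 (SD 0.92, rank 57), the dim antisense RNA KLF3-AS1 (0.81, rank 96) and KLF6 (0.80, rank 100) were also among the first 100 genes, whereas the median SD of all 71 members was 0.221. Arrays of different replicate numbers appear to have been normalized apart, so these levels carry that difference too; what part it has in them was not tested.

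**Figure D4:**
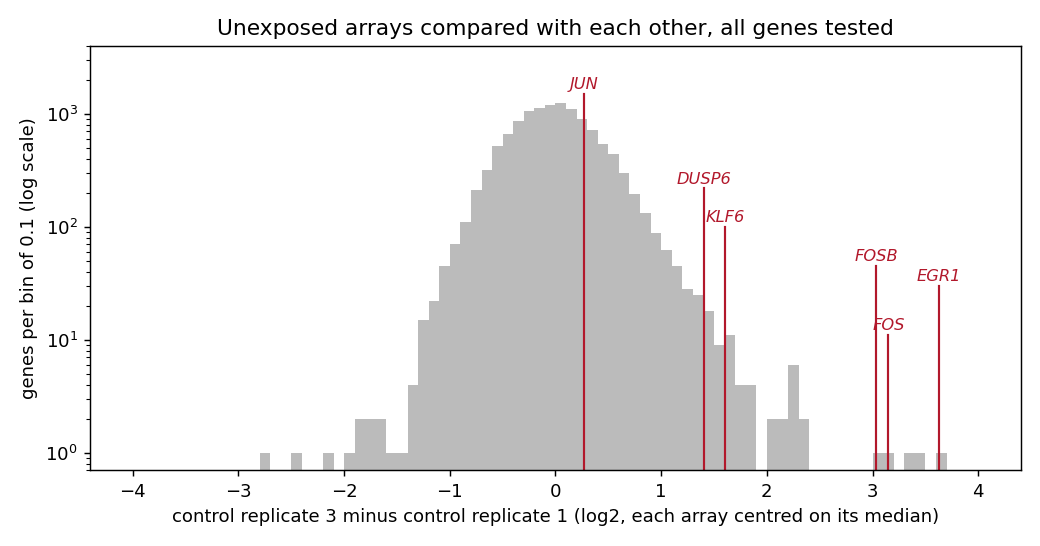
Histogram of the difference between unexposed replicate 3 and unexposed replicate 1 (horizontal axis, log2 units, each array centred on its median) over the 12155 tested genes (vertical axis, genes per bin of 0.1 on a log scale), with 6 members marked by red lines whose height has no meaning. EGR1 (3.63), FOS (3.15) and FOSB (3.04) lie in the far right tail, KLF6 and DUSP6 on its shoulder, and JUN within the bulk.

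The second comparison was 100 nm particles against the same 3 unexposed arrays. No member passed (limma, 0% of all genes with or without the block), and 0 members had an unadjusted p under 0.05 in either fit, where 0% of all genes did without the block and 0.271% with it (0.107% higher). Of the 71 members 21 held exactly the control's value in all 3 numbers, where 30.3% of all genes did. FOSL1 (0.07, 0.03 and 0.04) and KLF14 were higher in all 3 numbers, where 1.25% of all genes were, and ARC was lower in all 3 (-0.03, -0.02 and -0.01), where 1.41% were. No member was over 0.5 in mean with 1 sign in every number, where 0.00823% of all genes were in each direction. KLF14 was the 1 member over 0.5 in at least 1 number, where 1.09% of all genes were. The mean differences of the members ran from -0.19 for FOSB, on its brighter probe set, to 0.31 for KLF14.

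For the members that led the first comparison, the difference with 100 nm particles was -0.11 for EGR1 (95% interval -2.02 to 1.80, and -1.15 to 0.93 with the block). It was -0.02 for ARC (-0.71 to 0.67), -0.07 for JUNB (-0.73 to 0.58), -0.03 for IER5 (-0.68 to 0.62), 0.01 for DUSP1 (-0.90 to 0.92) and 0.02 for MAFG (-0.64 to 0.69). These intervals do not show that the levels were equal: a log2 difference of 1 lies inside that of EGR1 without the block, and 0.93 is its upper bound with it. KLF14, a single-exon KLF gene singled out after its values were seen, was at 5.52, 5.58 and 5.89 in unexposed cells, 5.66, 5.71 and 6.57 with 100 nm particles and 5.99, 5.58 and 6.12 with 5 nm particles. Its difference of 0.31 rests mainly on replicate 3 (0.15, 0.12 and 0.68), and the groups overlap.

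The third comparison set the particles against each other, each given at about the LD50, so that particle size and dose cannot be told apart. No member passed (limma, where 0.0658% of all genes were higher without the block and 0.288% higher and 0.329% lower with it). At an unadjusted p under 0.05 limma had 8 members, all higher with 5 nm particles, where 1.36% of all genes were higher and 1.7% were in either direction. With the block it had 11 higher and 3 lower, where 5.71% and 8.59% of all genes were. The difference was 2.04 for EGR1 (adjusted p = 1 in limma, 0.131 with the block), 1.40 for ARC (0.407 and 0.238), 1.23 for JUNB (0.486 and 0.242) and 1.16 for DUSP1 (1 and 0.202). For IER5 the adjusted p was 0.423 in limma and 0.165 with the block. Again 13 members were higher in all 3 numbers, where 8.04% of all genes were. The 9 members over 0.5 in mean with 1 sign in every number (2.11% of all genes were higher by that measure) were those of the first comparison, which shares the 5 nm arrays. The F-test over the 3 groups called 0 members with or without the block, where 0.0576% of all genes passed without it and 0.296% with it.

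Genes outside these families that are also known as immediate-early genes were read from a list of 43, of which 23 were tested. The list was written with earlier results of these data known and holds IL11, CXCL8 and PTGS2, which had already stood out, so its count is no independent evidence. After 5 nm particles 2 of the 23 passed in limma, both higher, where 0.074% of all genes passed as higher. In all 3 numbers 14 were higher and 2 lower, where 8.03% and 13.4% of all genes were. The 2 that passed were IL11, a cytokine (3.21, adjusted p = 0.00555 in limma, 0.0712 with the block), and CXCL8, a neutrophil chemokine (2.76, adjusted p = 0.00278, 0.0426 with the block). The median difference was 0.51, against 0.00 over all genes. PTGS2, the inducible cyclooxygenase, differed by 2.61 (adjusted p = 0.36 in limma). EPHA2, a receptor kinase, NAB1, a corepressor of EGR1, and EDN1, the endothelin precursor, had the lowest values, -0.30, -0.28 and -0.17, and did not pass.

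Upstream of the members, 38 of 58 listed genes of the MAP kinase cascade were tested, with a median difference of -0.03 and 0 past the threshold in limma without the block. With the block 2 passed, both higher, where 0.65% of all genes passed and 0.296% passed as higher. They were MAP2K1, which encodes the ERK kinase MEK1 (0.42, 0.40 and 0.28, adjusted p = 0.0443 in limma with the block), and MAP3K2, a kinase further up (0.29, 0.33 and 0.22, adjusted p = 0.0303). With the block and only the 5 nm and unexposed arrays in the fit, 0 of 12155 genes passed in limma (840 at an unadjusted p under 0.05), so neither these nor CXCL8 did. Of 32 factors known to act on immediate-early genes, 26 were tested and 0 passed with or without the block. Their median difference was 0.08; ETS2 (0.57), NFE2L2 (0.51) and MEF2D (0.46) had the highest values, and MRTFB (-0.54), a coactivator of the serum response factor, CREB1 (-0.26) and CRTC3 (-0.24) the lowest.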

How the data were processed

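Gene expression was measured on 9 Affymetrix arrays from 300 ng of total RNA each, per the labels' protocols. Per the submitters' processing notes, RMA and Affymetrix Expression Console 1.3.1 were used by the authors, whose deposited table gives 53617 probe sets on a log2 scale. Its values show the pattern of 3 arrays normalized at a time, by replicate number, many being exactly equal within a number. Gene symbols came from the platform annotation for 16098 probe sets, all matched through the Entrez identifier; 70.0% of probe sets had none. The probe set with the highest mean stood for each of 14884 genes, and 12155 reached a log2 value of 5 on at least 3 arrays.

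Group means were fitted to all 9 arrays with limma 3.58.1 (lmFit, eBayes; R 4.3.3; 6 residual degrees of freedom), with Benjamini-Hochberg adjustment over all genes tested, and were checked on simulated data. Deviations from group means correlated at 0.762 to 0.967 in the 9 pairs of arrays that share a number across groups. In the 18 pairs that do not, they correlated at -0.582 to -0.265. Deviations within a group cancel out, which pushes the latter values down, and normalization by replicate number can raise the former. These values therefore do not show whether the arrays of a number came from a common experiment. A fit with the number as a block (4 residual degrees of freedom) is given beside results. Genes with equal values within each number have almost no residual spread in that fit, such as DUSP2 with a standard error of 0.0017. How far such ties move the adjusted p-values of the block fit was not tested.

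Members and lists were chosen with earlier results of these data known. The named-gene rule took EGR1 and ARC, members past the threshold in either fit (none), members over 0.5 in mean with 1 sign in every number, and the largest difference and the highest unexposed mean in each family; members over 0.5 are given on every array, the others by unexposed levels and their 5 nm levels or differences, and further members as family examples. Promoter sequences are RefSeq's (GRCh38.p14); no build for the arrays' annotation is given in the sources used here. Alternatives covered the block, the groups fitted, the floor, the scaling, the probe set rule and leaving out each array; those on the count over 0.5 were chosen after seeing the data.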

Additional observations from a re-analysis of the deposited data

Results flagged for a closer look

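ARC was higher than the unexposed array in all 3 replicate numbers after 5 nm particles (0.90, 2.39 and 0.83) and lower in all 3 after 100 nm particles (-0.03, -0.02 and -0.01), which is what drew attention to it. The difference between the particles was 1.40 (95% interval 0.71 to 2.09) and did not pass in limma (adjusted p = 0.407, and 0.238 with the replicate block). The 100 nm values are within 0.04 of the unexposed ones.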

How the results depend on the processing

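No member passed in any comparison under the other fits (only the 2 groups compared, with or without the replicate block), floors (none, or log2 6), scalings (arrays centred on their median, quantile normalization over all 9 arrays) or with the mean of all probe sets, nor when 1 array was left out without the block. When 1 array was left out with the replicate block, the number of members past the threshold ranged from 0 to 4 for 5 nm against control, 0 to 1 for 100 nm against control, 0 to 4 for 5 nm against 100 nm and 0 to 3 over the 3 groups; over all genes it ranged from 2 to 446, 0 to 1, 7 to 449 and 0 to 183. Of all genes, 9 passed for 5 nm against control, 79 with the block, 15 with a floor of log2 6, 19 with quantile normalization, 6 to 15 without 1 array and 0 with the block and only the 2 groups compared. With the block, 2 passed without control replicate 3, 326 without the 5 nm array of replicate 2 and 446 without that of replicate 3. On all 9 arrays, 8 genes passed for 5 nm against 100 nm without the block and 75 with it. The count of 9 members over 0.5 with 1 sign in every number was 8 to 10 under the other floors, scalings and probe set rule and 6 to 12 without 1 replicate number. Over 27 settings the difference of EGR1 ranged from 0.97 to 2.72, that of ARC from 0.87 to 1.65, that of IER5 from 0.92 to 1.51, that of JUNB from 0.83 to 1.59 and that of FOSB from 0.15 to 1.44, none changing sign. With 3 arrays a group, levels near the floor of 5 (EGR4, MAF, KLF3-AS1) need not follow the amount of RNA, and small differences can be set to exactly 0 within a replicate number.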

Other observations

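All 11 probe sets of IER3 were lower or at exactly 0 in each number after 5 nm particles, but several hold identical values and are not independent. FOS had a second, dimmer probe set that differed by 0.30, 0.00 and -0.02 in replicates 1, 2 and 3, close to the brighter one in showing a higher value in replicate 1 only. Ahead of EGR1, FOS and FOSB in spread over the unexposed arrays stood KRTAP4-8, ST3GAL6-AS1 and KRTAP20-1 (SD 1.99, 1.88 and 1.86), genes of which the latter pair reached values under 5 on at least 1 unexposed array.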
